A study of Mus musculus with 18 samples.

Results

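Cells carrying the P248L form of the IL-3 receptor alpha chain and kept in IL-3 for 5 days were compared, gene by gene, with cells carrying the wild-type chain and kept in IL-3 for 2 days. The question was whether the later P248L state looks like a delayed form of the earlier wild-type state or like another path of myeloid maturation. The comparison used 6 of the 18 libraries of the series, picked by their labels, with 3 libraries in each group. The gene lists below were chosen with earlier results of these data known. In all, 11942 of the 23329 genes in the files passed a filter on low counts. Over all of these genes the P248L day 5 libraries lay closer to wild-type day 5 than to wild-type day 2, at a mean distance of 1.37 against 1.49. On the first principal component of the 1000 most variable genes they lay closer to wild-type day 2. Gene groups differed in whether they stood between the wild-type times, near 1 of them or outside every wild-type library.

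The cells are FDH cells, immortalized fetal liver cells of BALB/c mouse embryos without the beta common chain (bc-/-) and without its mouse-specific relative bIL-3 (bIL-3-/-). Both lines were transduced to express bc. In addition, 1 line carried IL3Ra P248L and the other carried wild-type IL3Ra. The P248L day 5 group and the wild-type day 2 group had been in medium with IL-3 at 100 ng/ml for the stated time. Wild-type cells at day 5 in the same medium, P248L cells at day 2, and both lines before IL-3, in medium with stem cell factor (SCF) at 100 ng/ml and doxycycline, served as further groups of 3 libraries each. The medium described for IL-3 lists neither SCF nor doxycycline, so a change from the starting state reflects added IL-3 as well as SCF and doxycycline withdrawn. Receptor and line cannot be told apart, since each receptor was studied in 1 line, and in the main comparison the day differs as well. The labels do not say whether the 3 libraries of a group came from separate cultures, so p-values measure the spread between these libraries, which may be technical.

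The IL-3 receptor joins an alpha chain, which binds the cytokine, to the shared beta chain, which carries the kinase JAK2 and passes the signal to STAT5 and to the MAP kinase and AKT pathways. In bone marrow and fetal liver IL-3 keeps myeloid progenitors alive and dividing and lets them mature toward neutrophils, monocytes and macrophages, basophils, mast cells and eosinophils. Neutrophil maturation is staged: proteins of the primary granules are made first, those of the secondary and tertiary granules next, and receptors for bacterial peptides and chemokines last. Monocyte and macrophage maturation brings the CSF1 receptor, lysosomal enzymes and scavenger receptors.

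Reads in genes, in units of 1e+06, ranged from 13.9 to 23.3 in the P248L day 5 libraries and from 17.1 to 22.3 in the wild-type day 2 libraries, and from 13.8 to 27.2 over all 18. The 10 most abundant genes took 10.8 to 11.3% of reads at P248L day 5 and 5.12 to 5.40% at wild-type day 2, and the TMM factors that allow for such differences were 0.907 to 0.938 and 1.02 to 1.03. Defining markers of lymphoid, erythroid and endothelial or stromal cells summed to at most 1.11 CPM (read counts scaled to a total of 1e+06) per list in the P248L day 5 libraries and to at most 0.746 CPM in those of wild-type day 2. The 4 hepatocyte markers summed to 0.153 to 1.004 CPM at P248L day 5 and 13.3 to 14.3 CPM at wild-type day 2, where all of it was Afp, the alpha-fetoprotein gene (log2 fold change -4.79, adjusted p = 2.6e-09), while Alb and Ttr had no read in either group. Monocyte and macrophage markers (7 genes) summed to 2875 to 3312 CPM at P248L day 5 and 421 to 527 CPM at wild-type day 2, and neutrophil markers (10 genes) to 26598 to 39034 CPM and 17285 to 20351 CPM in the same groups. Most of the P248L day 5 sums was Ccr2 (mean 1845 CPM) and S100a8 and S100a9 (14043 and 17050 CPM). In wild-type cells before IL-3 the monocyte and macrophage markers already summed to 1703.5 to 1905 CPM. Among the neutrophil markers Mpo, Elane, Camp and Cd177 were lower at P248L day 5, and Ltf, Csf3r, Cxcr2, S100a8 and S100a9 higher. Replicate libraries were not copies of each other in any group. In P248L before IL-3 (library 1) and P248L day 2 (library 3) the spread was widest, at a chi-square of up to 200.3 per degree of freedom against at most 27.8 within the 2 groups compared. Levels below are CPM after TMM scaling, either for libraries 1, 2 and 3 in that order or as mean ± SD (n = 3). Log2 fold changes are P248L day 5 over wild-type day 2 unless another pair is named, ± SE. Changes were called at an adjusted p under 0.05 in edgeR's quasi-likelihood test over all tested genes.

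Across the whole transcriptome the 2 groups were far apart. Of the 11942 genes tested, 7902 (66.2%) differed, 3939 higher (33%) and 3963 lower (33.2%) at P248L day 5, and 4517 of them differed by 2-fold or more. In 9317 genes (78%) the 3 libraries of one group did not overlap with the 3 of the other, 4601 above (38.5%) and 4716 below (39.5%). At the other extreme, the 95% interval of the fold change lay within 2-fold in either direction for 4596 genes (38.5%), of which 3032 were not called. Against wild-type cells of the same day 5420 genes (45.4%) differed, 2708 higher and 2712 lower (22.7% each), 2558 of them by 2-fold or more. Without a scaling factor the median log2 fold change over all genes moved by -0.146 against wild-type day 2 and by 0.119 against wild-type day 5.

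The same order held for the distance between libraries, taken as the root mean square difference in log2 CPM over all tested genes. Over the 9 pairs of libraries it was 1.37 ± 0.035 (SD) between P248L day 5 and wild-type day 5, and 1.49 ± 0.035 between P248L day 5 and wild-type day 2. The highest pair with wild-type day 5 (1.42) lay below the lowest pair with wild-type day 2 (1.43). P248L cells before IL-3 were farthest away (1.93 ± 0.081), with wild-type cells before IL-3 at 1.84 ± 0.029 and P248L day 2 at 1.79 ± 0.055, whereas replicate libraries of P248L day 5 lay 0.364 ± 0.0043 apart. Wild-type day 2 and wild-type day 5 were 1.80 apart. On the first principal component the P248L day 5 libraries (56.5 to 61.9) stood between wild-type day 2 (8.88 to 13.5) and wild-type day 5 (119 to 124). On this axis they were nearer to wild-type day 2, so the order depended on the genes and measure used. On the second component they stood apart from both, at -57.9 to -55.4, against 23.8 to 25.5 at wild-type day 2 and 22.6 to 26.2 at wild-type day 5.

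**Figure D1:**
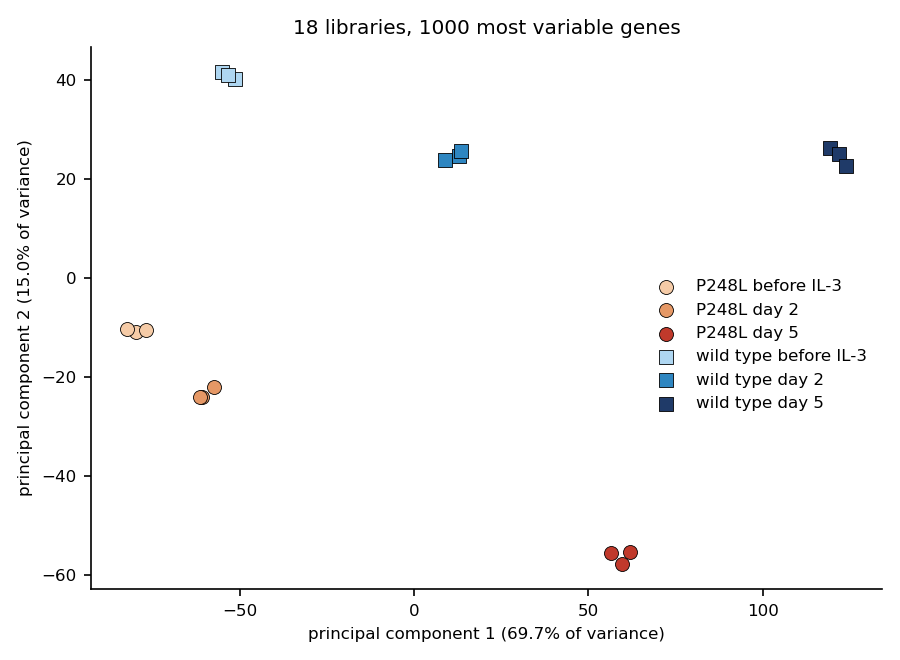
First and second principal components of log2 CPM over the 1000 most variable genes, 1 point per library (circles P248L, squares wild type). The first axis (69.7% of variance) places P248L day 5 between wild-type day 2 and day 5, and the second (15%) places it outside all wild-type libraries.

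Gene by gene, 3341 genes (28%) had all 3 P248L day 5 libraries between the wild-type day 2 and the wild-type day 5 libraries with no overlap, 1668 above day 2 and below day 5 and 1673 the other way round. In 1246 genes (10.4%) the P248L day 5 libraries lay above all 9 wild-type libraries, and in 1026 (8.59%) below all 9. The gap to the nearest wild-type library was 2-fold or more for 151 (1.26%) and 189 (1.58%) of these.

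Changes from each line's own starting state were then set side by side, which takes separate libraries for each line. P248L cells changed 8474 genes (71%) by day 5, with 4152 higher (34.8%) and 4322 lower (36.2%). Wild-type cells changed 5223 genes (43.7%) by day 2, with 2630 higher (22%) and 2593 lower (21.7%), and 8723 (73%) by day 5, with 4265 higher (35.7%) and 4458 lower (37.3%). Of the 2630 genes that rose in wild-type cells by day 2, 64.6% also rose in P248L cells by day 5 and 16.5% fell. Of the 2593 that fell in wild-type cells by day 2, 50.8% also fell and 20.4% rose. The genes that fell in both numbered 1318, or 2010 without a scaling factor, and those that took opposite directions 961, or 1462 without P248L before IL-3 library 1 and P248L day 2 library 3. For the wild-type day 5 response the opposite direction was taken by 2.86% of 4265 risers and 2.40% of 4458 fallers. Read from the other side, 40.9% of the 4152 genes that rose in P248L cells had risen at wild-type day 2, 79.8% had risen at wild-type day 5, and 664 (16.0%) had risen at neither. Across genes the P248L day 5 response had a Pearson r of 0.611 and a Spearman rho of 0.396 with the wild-type day 2 response, and 0.819 and 0.834 with the wild-type day 5 response. These describe 11942 genes, which are not independent, and both wild-type responses share the libraries taken before IL-3.

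**Figure D2:**
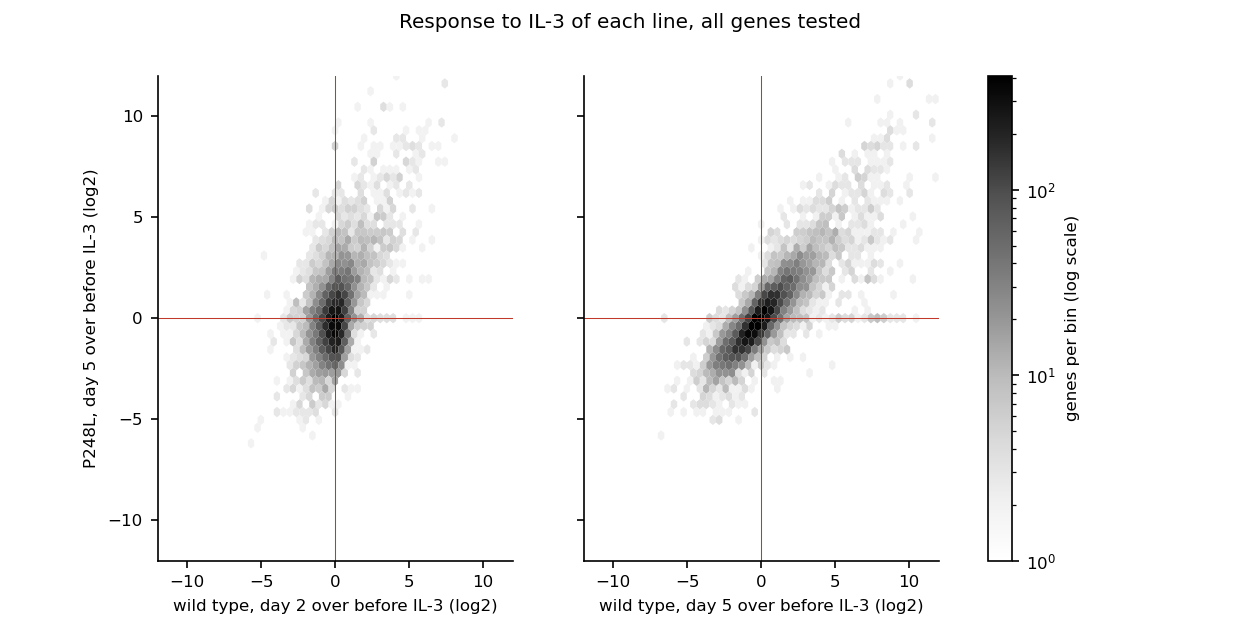
Response of P248L cells at day 5 (vertical axis, log2 over the same line before IL-3) against the response of wild-type cells at day 2 (left) and day 5 (right), all tested genes binned by density. Points spread steeply around the vertical axis at left and lie along a diagonal at right, and 52 genes fall beyond the axes, which end at 12.

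The genes below are grouped by role in 36 lists, whose 699 genes gave 694 in the files and 606 that passed the filter on low counts; list counts are over these. Reads assigned to Csf2rb, which encodes the common beta chain (chromosome 15, 78325800 to 78351001 of GRCm38.p6), stood at 270.3, 217 and 227 CPM at P248L day 5, against 308, 293 and 213 CPM at wild-type day 2. The groups overlapped, and the log2 fold change of -0.19 ± 0.15 did not pass (adjusted p = 0.29). Csf2rb2, which encodes the near-identical bIL-3, stood at 300.01 ± 43.2 CPM at P248L day 5 and 329 ± 59.8 at wild-type day 2 (log2 fold change -0.13 ± 0.13, adjusted p = 0.39). Reads can be shared between the pair, the deleted exons and the species of the transduced chains are not given in the labels, and so these levels check no genotype. At wild-type day 5 both were higher, at 437 and 647 CPM, and the P248L day 5 libraries lay below all 3 of them. Il3ra, the alpha chain, was low at 2.73 ± 0.556 CPM at P248L day 5 and 2.67 ± 0.444 CPM at wild-type day 2 (adjusted p = 0.95).

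Of 24 tested cytokine receptor genes 15 were higher and 4 lower at P248L day 5, where 33% and 33.2% of all genes were, with a median log2 fold change of 0.90 against -0.0078 over all genes (0.019 against wild-type day 5). Csf1r, the receptor for the macrophage growth factor CSF1, read 247.9, 189.9 and 232 CPM at P248L day 5 and 10.8, 7.92 and 11.7 CPM at wild-type day 2. The groups were far apart (log2 fold change 4.46 ± 0.17, adjusted p = 1.9e-12), while wild-type day 5, at 203 ± 23 CPM, did not differ by the test (adjusted p = 0.48). Csf2ra, the GM-CSF-binding chain, and Csf3r, the G-CSF receptor, were also higher than at wild-type day 2, with log2 fold changes of 1.80 ± 0.16 and 2.72 ± 0.22, and did not differ from wild-type day 5 by the test (adjusted p = 0.87 and 0.48). Il1r2, a decoy receptor for interleukin 1 of maturing neutrophils, went beyond both wild-type times at 419, 453 and 556 CPM, against 19.3, 19.3 and 23.2 CPM at wild-type day 2 and 67.4, 71.5 and 86.2 CPM at wild-type day 5. Il5ra, the IL-5-binding chain, fell (log2 fold change -3.76 ± 0.54, adjusted p = 8.4e-06), and was under 3 CPM in either group.

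Among 16 genes known to respond to STAT5, 7 were higher and 4 lower (median 0.42). The 68.8% called was near the 66.2% of all genes. Cish, a feedback inhibitor of this pathway, rose to 259, 241 and 237 CPM at P248L day 5, against 153, 141 and 169.98 CPM at wild-type day 2 (log2 fold change 0.67 ± 0.18, adjusted p = 0.0037), and Pim1, a survival kinase, rose by 0.84 ± 0.14 on the log2 scale (adjusted p = 3.5e-05). Both lay above all 9 wild-type libraries. Pim2, a related kinase, fell to 5.23, 3.3 and 5.65 CPM, against 26.8, 36.5 and 32.7 CPM at wild-type day 2 (log2 fold change -2.74 ± 0.30, adjusted p = 4.3e-07). Ccnd2, the cyclin D2 gene, had 253 ± 9.7 CPM at P248L day 5 and 280.3 ± 15.9 CPM at wild-type day 2 (log2 fold change -0.15 ± 0.12, adjusted p = 0.31). With the replicate number as a block in the 6 libraries alone its adjusted p was 0.017. Of 22 tested MAP kinase feedback and immediate early genes 12 rose and 7 fell (86.4% called, against 66.2% of all genes). Fos rose by 4.01 ± 0.26 on the log2 scale (adjusted p = 6.3e-10), Fosl1 fell (log2 fold change -1.15, adjusted p = 0.012), and Junb did not pass (log2 fold change 0.43, adjusted p = 0.24). Jun, from the list of lineage factors, rose to 152, 90.2 and 133 CPM, against 5.32, 4.82 and 6.48 CPM at wild-type day 2 (adjusted p = 1.9e-10).

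Progenitor genes gave a mixed picture. Of 16 tested, 5 were higher and 8 lower at P248L day 5 (median -0.49). Without a scaling factor the number higher was 2, and leaving out wild-type day 2 library 1 or 2 or P248L day 5 library 1 gave 3. Flt3, the receptor of early progenitors, stood at 0.0981 CPM at P248L day 5 and 0.471 CPM at wild-type day 2, against 133 CPM in wild-type cells before IL-3. Hoxa9, which sustains progenitor self-renewal, stood at 1.76 ± 1.03 CPM at P248L day 5 and 1.6 ± 0.185 CPM at wild-type day 2 (adjusted p = 0.81), against 169.8 ± 56.6 CPM in wild-type cells before IL-3. In P248L cells before IL-3 it stood at 11.5, 93.2 and 147 CPM. Hoxa7 and Hoxa10, of the same list, had 2 and 0 reads over all 18 libraries. The part of doxycycline, withdrawn as IL-3 was given, in the level of Hoxa9 was not tested. Myb, a factor that keeps progenitors dividing, was lower at 65, 85.3 and 53.2 CPM at P248L day 5, against 406, 408 and 375 CPM at wild-type day 2 (log2 fold change -2.55 ± 0.18, adjusted p = 1.5e-09). It stood above the 23.3, 22.9 and 14.9 CPM of wild-type day 5, so the P248L libraries lay between the wild-type times. Myc, which drives growth, took the same place (112 ± 18 CPM at P248L day 5, against 254 ± 33.8 CPM at wild-type day 2 and 37.5 ± 1.56 CPM at wild-type day 5). Prom1, a surface protein of progenitors, instead rose to 96.1, 114 and 104 CPM, above all 9 wild-type libraries, against 34.3, 37.2 and 29.2 CPM at wild-type day 2.

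Transcription factors of the myeloid lineages changed in both directions. Of 42 tested, 25 were higher and 9 lower. Among factors of granulocytes, Gfi1 and Cebpe fell. Gfi1, a repressor needed for neutrophil fate, read 23, 28.7 and 18.5 CPM at P248L day 5 and 138, 125 and 126 CPM at wild-type day 2 (log2 fold change -2.48 ± 0.18, adjusted p = 1.8e-09). Cebpe, which switches on secondary granule genes, read 55.6, 56.8 and 49.7 CPM at P248L day 5 and 214, 190.3 and 215 CPM at wild-type day 2 (log2 fold change -1.94 ± 0.24, adjusted p = 1.6e-06). Gfi1 did not differ from wild-type day 5 by the test (adjusted p = 0.18), and Cebpe stood between the wild-type times. Cebpa, a factor of granulocyte and monocyte progenitors, rose (log2 fold change 0.59 ± 0.21, adjusted p = 0.018, or 0.085 without a scaling factor and 0.053 and 0.071 without wild-type day 2 library 1 or 2), and its relative Cebpd did not pass (adjusted p = 0.73). Among factors of monocytes and macrophages, Irf8 and Pparg rose. Irf8, which directs progenitors toward monocytes, had 109, 84.9 and 105 CPM at P248L day 5 and 10.02, 8.89 and 15.6 CPM at wild-type day 2 (log2 fold change 3.12 ± 0.20, adjusted p = 4.1e-10), and Pparg, a lipid-sensing receptor of macrophages, had 82.4, 76.2 and 87.3 CPM and 3.88, 3.96 and 4.33 CPM in the same groups (log2 fold change 4.34 ± 0.19, adjusted p = 9.1e-12). Neither differed from wild-type day 5 by the test (adjusted p = 0.13 and 0.87).

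Maf and Klf4 were low against wild-type day 5. Maf, a transcription factor of macrophages, stood at 0.99 ± 0.394 CPM at P248L day 5 and 0.681 ± 0.0996 CPM at wild-type day 2, against 104 ± 42.1 CPM at wild-type day 5. Klf4, a factor of monocytes, stood at 0.0154 CPM at P248L day 5 and 0.334 CPM at wild-type day 2, against 15.2 CPM at wild-type day 5. Both genes were thus under 1.5 CPM at P248L day 5 and above 4 CPM at wild-type day 5.

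Most primary granule genes of neutrophils were lower than at wild-type day 2, and most secondary and tertiary granule genes were higher. Of 12 tested primary granule genes 9 were lower and 2 higher at P248L day 5 (median -1.36). Between the wild-type times, 7 lay below day 2 and above day 5, against 14% of all genes, and 1 lay the other way round. Mpo, the myeloperoxidase gene (chromosome 11, 87793784 to 87804412), read 236, 279 and 204 CPM at P248L day 5, against 2647, 2099 and 2084 CPM at wild-type day 2 and 6.88, 7.73 and 4.35 CPM at wild-type day 5. All 3 P248L libraries lay below wild-type day 2 and above wild-type day 5 (log2 fold change -3.25 ± 0.26 and 5.24 ± 0.29, adjusted p = 7.2e-09 and 1.7e-10). Ctsg, the cathepsin G gene, ran in parallel at 18.7, 19.3 and 17.9 CPM, against 363, 288 and 289 CPM at wild-type day 2 and 1.64, 1.54 and 0.408 CPM at wild-type day 5. Prtn3 and Elane, which encode the serine proteases proteinase 3 and neutrophil elastase, fell by 2.01 and 1.32 on the log2 scale (adjusted p = 5.1e-06 and 0.0019), and Ms4a3, a gene of granulocyte and monocyte progenitors, by 3.18 (adjusted p = 4.7e-11). Ctsc, which encodes the peptidase that activates these proteases, rose by 0.41 ± 0.14 (adjusted p = 0.015). Its call was lost without a scaling factor (0.064), without P248L day 5 library 3 (0.073) and without wild-type day 2 library 1 (0.10) or 2 (0.080).

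Secondary and tertiary granule genes were mostly higher. Of 28 tested, 18 were higher and 2 lower (median 1.40), or 6 lower with the replicate block in the 6 libraries alone. The 71.4% called was near the 66.2% of all genes, of which 33% were higher and 33.2% lower. In the main test 8 were not called, so the list did not rise as a whole. Ltf, the lactoferrin gene (chromosome 9, 111019292 to 111042766), had 613, 499 and 399.6 CPM at P248L day 5, against 123, 125 and 90.7 CPM at wild-type day 2 and 159, 239 and 231 CPM at wild-type day 5. Its P248L day 5 libraries lay above all wild-type libraries (log2 fold change 2.16 ± 0.22, adjusted p = 1.2e-07). Mmp8 and Mmp9, 2 matrix proteases of these granules, rose by 3.45 ± 0.24 and 5.89 ± 0.27 (adjusted p = 1.5e-09 and 9.3e-12) and did not differ from wild-type day 5 by the test (adjusted p = 0.85 and 0.83). Lyz2, the lysozyme gene of myeloid cells, reached 18802, 13652 and 17392 CPM at P248L day 5, against 605, 525 and 491 CPM at wild-type day 2 and 39883, 37339 and 31758 CPM at wild-type day 5. Reads of its near-identical neighbour Lyz1 can be confused with it. Ngp, a secondary granule protein gene, had 1507 ± 349.6 CPM at P248L day 5 and 1935 ± 455 CPM at wild-type day 2 (adjusted p = 0.29, or 8.4e-05 with the block in the 6 libraries alone), and Camp, the cathelicidin gene, fell (log2 fold change -0.86 ± 0.28, adjusted p = 0.013, or 0.052 without P248L day 5 library 3). Cd177, a neutrophil surface protein, was the other gene that fell (log2 fold change -1.19 ± 0.21, adjusted p = 8e-05).

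Genes of late neutrophils were higher than at either wild-type time in many cases. Of 29 tested 24 were higher and 2 lower than at wild-type day 2 (median 1.41), 17 were higher and 3 lower than at wild-type day 5, and 15 lay above all 9 wild-type libraries, against 10.4% of all genes. The 2 lower genes were Trem3, a receptor of myeloid cells (log2 fold change -0.47 ± 0.20, adjusted p = 0.045), and Ptgs2, cyclooxygenase 2 (log2 fold change -0.86 ± 0.34, adjusted p = 0.032). Neither was called without wild-type day 2 library 2 or without P248L day 5 library 1, and 1 of them was called with DESeq2, upper-quartile factors or the replicate block. Fpr1, a receptor for bacterial formyl peptides (chromosome 17, 17876471 to 17883939), read 129, 99.6 and 105 CPM at P248L day 5, against 0.305, 0.23 and 0.313 CPM at wild-type day 2 and 47.3, 49.9 and 51 CPM at wild-type day 5 (log2 fold change 8.57 ± 0.24 over wild-type day 2, adjusted p = 4.9e-12). Fpr2, its relative, read 282, 275 and 298 CPM, against 6.54, 8.49 and 7.73 CPM at wild-type day 2 and 113, 121 and 153 CPM at wild-type day 5. No library of one group overlapped with another for either gene. Cxcr2, the chemokine receptor that draws neutrophils out of marrow, was higher than in both wild-type groups (124 ± 19.8 CPM at P248L day 5, against 53.9 ± 7.56 CPM at wild-type day 2 and 48.2 ± 5.17 CPM at wild-type day 5). S100a8 and S100a9, which encode the calprotectin subunits, rose by 1.41 ± 0.31 and 0.99 ± 0.30 (adjusted p = 0.00068 and 0.0083). Cxcr4, a receptor that holds cells in marrow, stood at 128 ± 19.7 CPM at P248L day 5 and 138 ± 5.55 CPM at wild-type day 2 (adjusted p = 0.57), with its interval inside 2-fold.

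Of 16 chemoattractant receptor genes, which overlap with these lists, 15 rose and 0 fell (median 2.42). C5ar1, the receptor for complement C5a, rose to 221, 165 and 182 CPM, against 32.3, 26.2 and 25.9 CPM at wild-type day 2. Ccr2, the chemokine receptor of monocytes, reached 1845 ± 165 CPM at P248L day 5, against 169 ± 36.5 CPM at wild-type day 2 and 207 ± 55 CPM at wild-type day 5 (log2 fold change 3.45 ± 0.30, adjusted p = 2e-08). Before IL-3 it already stood at 1108 to 1563 CPM in P248L cells and 1524 to 1727 CPM in wild-type cells.

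The promoter of Mmp8 is shown as an example of the granule genes, from 250 bases upstream of its start to the start itself. The string searched was TTGCNNAA, a form bound by C/EBP factors, where N is any base, on both strands. In the windows listed by RefSeq (GRCm38.p6, 250 bases before to 50 after each start) it occurred for 10 of 23 secondary and tertiary granule genes with a listed promoter, and for 10.3% of 8580 tested genes. It was 1 of 12 strings scanned over the lists, chosen for its share in this list, so the count is a description and says nothing of binding. Capitals mark the match, on the plus strand of chr9:7558179-7558428.
Mmp8: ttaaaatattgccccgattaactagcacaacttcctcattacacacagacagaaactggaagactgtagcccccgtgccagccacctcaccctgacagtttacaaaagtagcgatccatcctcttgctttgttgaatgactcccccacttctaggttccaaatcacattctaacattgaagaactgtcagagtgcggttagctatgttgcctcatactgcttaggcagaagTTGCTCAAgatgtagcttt

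Monocyte and macrophage genes rose toward their wild-type day 5 levels. Of 33 tested 27 were higher and 2 lower than at wild-type day 2 (median 2.63), and 6 were higher and 20 lower than at wild-type day 5 (median -1.41) and 19 lay between, against 14% of all genes that lay above day 2 and below day 5. Cd68, a glycoprotein of macrophage lysosomes, read 430.2, 293 and 322 CPM at P248L day 5, against 31.8, 21.3 and 22.8 CPM at wild-type day 2 and 909.8, 1029 and 842 CPM at wild-type day 5. Siglec1, the sialoadhesin gene of tissue macrophages, had 6.3, 4.53 and 3.83 CPM at P248L day 5, no read in any wild-type day 2 library and 92.1, 108 and 82.3 CPM at wild-type day 5. From a floor of 3 reads over the group it was at least 96.9-fold higher than at wild-type day 2. Trem2, a lipid receptor of macrophages, read 236, 189 and 241 CPM, against 3.01, 2.58 and 4.86 CPM at wild-type day 2 and 293, 274 and 249.7 CPM at wild-type day 5. In bulk RNA, fewer cells of a type and less RNA per cell cannot be told apart.

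F13a1, which encodes coagulation factor XIIIa and marks classical monocytes (chromosome 13, 36867178 to 37050244), broke this order. It read 858, 764 and 873 CPM at P248L day 5, against 7.28, 5.51 and 4.75 CPM at wild-type day 2 and 91, 123 and 85.9 CPM at wild-type day 5 (log2 fold change 7.14 ± 0.23 and 3.06 ± 0.19, adjusted p = 3.9e-13 and 6.3e-10). Before IL-3 it stood at 224 ± 40.5 CPM in P248L cells and 457 ± 23.6 CPM in wild-type cells. Lpl, the lipoprotein lipase gene, went the other way, at 0.742 ± 0.52 CPM at P248L day 5, 8.91 ± 3.61 CPM at wild-type day 2 and 65.8 ± 59.5 CPM at wild-type day 5. Spp1, the osteopontin gene, did not differ by the test (2543 ± 697 and 2141 ± 146 CPM at P248L day 5 and wild-type day 2, adjusted p = 0.33).

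Lysosomal genes lay between the wild-type times in most cases. Of 26 tested 23 were higher and 1 lower than at wild-type day 2 (median 1.88), 25 were lower and 0 higher than at wild-type day 5 (median -1.17), and 23 lay between. Ctsb, the cathepsin B gene (chromosome 14, 63122462 to 63145923), read 1835, 1584 and 1884 CPM at P248L day 5, against 187, 189 and 180.1 CPM at wild-type day 2 and 8439, 7584 and 7169 CPM at wild-type day 5 (log2 fold change 3.25 ± 0.15, adjusted p = 1.3e-11). Psap, which encodes the saposin precursor, read 15484, 11288 and 14455 CPM, against 292, 254 and 339 CPM at wild-type day 2 and 24822, 24086 and 21564 CPM at wild-type day 5. Both were nearer on the log scale to wild-type day 5. Atp6v0d2, a subunit of the proton pump, stood further from wild-type day 5 (64.8, 40.2 and 63.8 CPM at P248L day 5, against 1.48, 2.12 and 1.67 CPM at wild-type day 2 and 1447, 1326 and 1493 CPM at wild-type day 5). Cd63, a membrane protein of late endosomes, was the 1 that fell, to 4.47 ± 0.706 CPM at P248L day 5, against 46.7 ± 8.32 CPM at wild-type day 2 and 409.7 ± 57.3 CPM at wild-type day 5 (adjusted p = 1.7e-09).

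The genes of iron and lipid handling were divided, with 10 of 16 higher and 5 lower (93.8% called, against 66.2% of all genes). Abcg1, a cholesterol exporter, rose to 869, 616 and 682 CPM at P248L day 5, against 21.5, 21.9 and 23.2 CPM at wild-type day 2 (log2 fold change 5.02 ± 0.14, adjusted p = 6e-14), and was below wild-type day 5, at 934, 937 and 978 CPM (log2 fold change -0.39 ± 0.12, adjusted p = 0.011). Slc40a1, the iron exporter ferroportin, fell to 1.71, 1.53 and 1.44 CPM, against 41.3, 42.6 and 32.4 CPM at wild-type day 2 (log2 fold change -4.62 ± 0.17, adjusted p = 7.5e-12), while wild-type day 5 stood at 105, 100.5 and 87.8 CPM. Slc40a1 stood below both wild-type IL-3 groups.

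**Figure D3:**
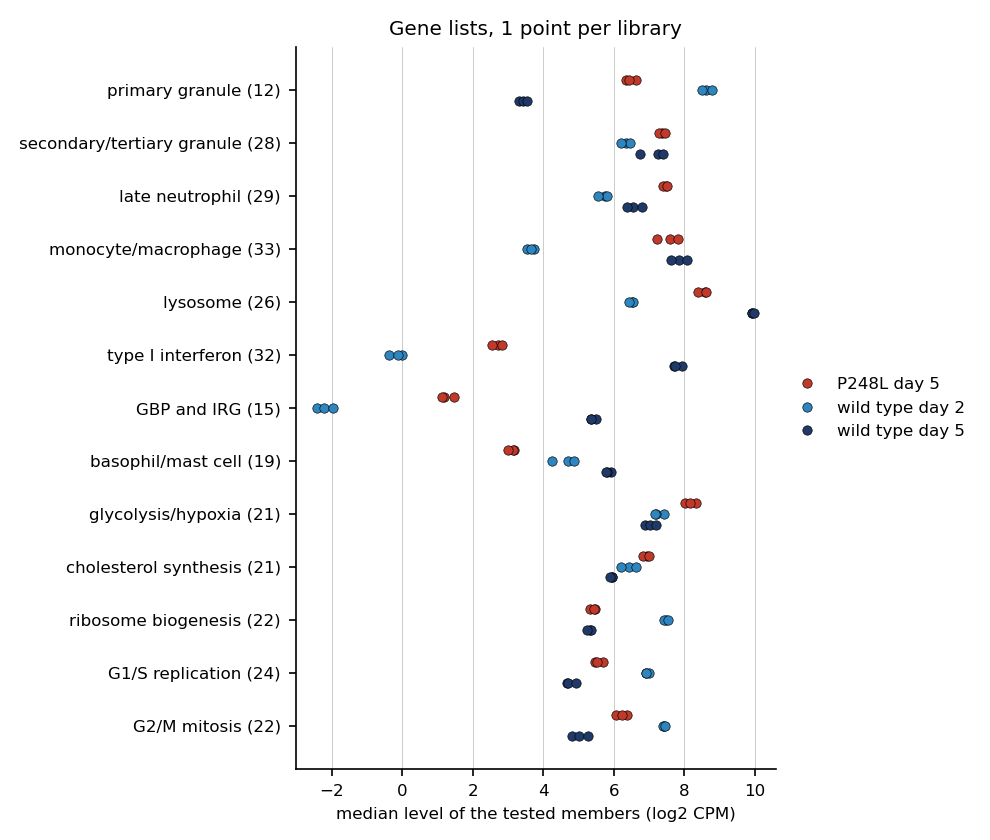
Median log2 CPM of the tested members of 13 gene lists (number of members in brackets), 1 point per library, for P248L day 5, wild-type day 2 and wild-type day 5. P248L day 5 stands between the other groups for the lysosome, type I interferon, G1/S and G2/M lists, beside wild-type day 5 for ribosome biogenesis, and above both for late neutrophil, glycolysis/hypoxia and cholesterol genes.

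Interferon-stimulated genes were higher at P248L day 5 than at wild-type day 2, but far from the levels of wild-type day 5. Of 32 tested genes of the type I interferon response 28 were higher and 0 lower than at wild-type day 2 (median 2.33), and all 32 were lower than at wild-type day 5 (median -4.87). Their median log2 CPM before IL-3 was already 1.25 in P248L cells, against -0.18 in wild-type cells, and was 2.70 at P248L day 5. Among the guanylate-binding proteins and immunity-related GTPases, which act against intracellular microbes, 12 of 15 were higher and 1 lower than at wild-type day 2, and all 15 were lower than at wild-type day 5. In wild-type cells 12 of these 15 had fallen by day 2 and 0 had risen. Their median log2 CPM was 1.17 in wild-type cells before IL-3 and -2.19 at wild-type day 2. In P248L cells it was 0.31 before IL-3 and 1.25 at day 5, near the wild-type starting level. Oas2, an enzyme that senses double-stranded RNA (chromosome 5, 120730333 to 120749886), read 11, 8.9 and 8.41 CPM at P248L day 5, against 0.392, 0.746 and 0.627 CPM at wild-type day 2 and 223, 264 and 280.2 CPM at wild-type day 5 (log2 fold change 4.03 ± 0.23 and -4.76 ± 0.19, adjusted p = 1.5e-10 and 2.7e-12). Irf7, which amplifies the response, read 17.1, 13.7 and 18.1 CPM, against 1.87, 0.918 and 0.836 CPM at wild-type day 2 and 571, 672 and 472 CPM at wild-type day 5. The 3 groups did not overlap for either gene. Irf9, a subunit of the factor ISGF3 that binds these promoters, stood at 41.2 ± 3.69 CPM at P248L day 5, against 9.82 ± 0.328 CPM at wild-type day 2 and 115 ± 5.51 CPM at wild-type day 5. Ifit1 had 1.99, 1.84 and 1.63 CPM at P248L day 5, 0.131, 0.23 and 0.104 CPM at wild-type day 2 and 216, 269 and 265 CPM at wild-type day 5.

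The promoters of Ifit1 and Gbp2 are shown for the interferon genes, picked because they hold the string below. Ifit1 was the only called named gene of the type I interferon list found with it in the 250 bases before a listed start. The interferon-stimulated response element was searched on both strands as GAAA, any 2 bases, GAAA. It occurred for 14 of 23 type I interferon genes and 7 of 8 guanylate-binding or immunity-related GTPase genes with a listed promoter, against 3.8% of 8580 tested genes. Capitals mark the matches in the 250 bases before each start, on the plus strand of chr19:34640639-34640888 and chr3:142620413-142620662. All of these matches are read from the opposite strand.
Ifit1: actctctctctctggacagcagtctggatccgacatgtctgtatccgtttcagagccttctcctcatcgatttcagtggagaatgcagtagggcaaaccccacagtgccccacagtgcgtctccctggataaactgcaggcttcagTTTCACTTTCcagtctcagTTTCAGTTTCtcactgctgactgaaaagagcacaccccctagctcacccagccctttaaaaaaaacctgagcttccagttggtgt
Gbp2: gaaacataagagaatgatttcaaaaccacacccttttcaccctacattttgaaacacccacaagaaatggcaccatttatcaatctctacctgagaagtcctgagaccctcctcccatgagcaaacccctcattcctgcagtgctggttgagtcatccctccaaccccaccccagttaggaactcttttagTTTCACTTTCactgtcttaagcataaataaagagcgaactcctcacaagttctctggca

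Antigen presentation genes were higher in part. Of 13 tested dendritic cell and antigen presentation genes 8 were higher and 1 lower (69.2% called, near the 66.2% of all genes). Cd74, the invariant chain of MHC class II, read 288, 249.7 and 373 CPM at P248L day 5, against 8.8, 8.38 and 11 CPM at wild-type day 2 and 51.7, 37 and 37.3 CPM at wild-type day 5 (log2 fold change 5.02 ± 0.18, adjusted p = 1.2e-12). H2-DMa, which helps load class II molecules, read 60.4, 40.7 and 50.3 CPM, against 6.27, 5.91 and 6.63 CPM at wild-type day 2. The class II chain H2-Aa itself stood at 0.0209 CPM at P248L day 5 and 0.0673 CPM at wild-type day 2. The 5 defining dendritic markers summed to 250 to 374 CPM at P248L day 5 and 8.66 to 11.4 CPM at wild-type day 2, nearly all of it Cd74, and H2-Ab1 and Siglech had no read in either group. The part of dendritic cells in these values was not tested.

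Basophil and mast cell genes were low against both wild-type times. Of 19 tested 15 were lower and 4 higher than at wild-type day 2 (median -2.04), 15 were lower and 1 higher than at wild-type day 5, and 13 lay below all 6 wild-type IL-3 libraries, against 11.9% of all genes. Cpa3, the carboxypeptidase of mast cells and basophils (chromosome 3, 20215616 to 20242209), read 38.3, 47.9 and 27.1 CPM at P248L day 5, against 914, 1099 and 786 CPM at wild-type day 2 and 2996, 2634 and 2026 CPM at wild-type day 5 (log2 fold change -4.63 ± 0.22 and -6.08 ± 0.24, adjusted p = 1.4e-11 and 2.3e-12). Before IL-3 it stood at 510.3 ± 43.1 CPM in P248L cells and 577 ± 81 CPM in wild-type cells, so it fell in the P248L line and rose in the wild-type line (log2 change -3.76 ± 0.21 by P248L day 5 and 0.69 ± 0.19 by wild-type day 2, adjusted p = 4.3e-11 and 0.0063). The difference of these responses passed the test (adjusted p = 1.4e-09). Cpa3 went against most called members of its list in P248L cells, of which 10 rose and 5 fell by day 5 (median log2 change 1.01). In wild-type cells 13 rose and 1 fell by day 2 (median 1.64). Before IL-3 the median log2 CPM of the list was lower in P248L cells, at 2.93 against 3.81 in wild-type cells. Gata2, the factor that sustains mast cell and basophil fate, read 9.73, 8.67 and 8.22 CPM at P248L day 5, against 113, 106 and 97 CPM at wild-type day 2. Hdc, which makes histamine, read 19.5 ± 3.34 CPM, against 139 ± 44.3 CPM at wild-type day 2 (adjusted p = 5e-08). Il1rl1, the IL-33 receptor, read 7.08 ± 1.65 CPM, against 38.4 ± 11 CPM at wild-type day 2 and 133 ± 18.6 CPM at wild-type day 5. Of the 4 genes that rose, Hpgds and Ltc4s, which make prostaglandin D2 and leukotriene C4, and Fcer1g, the shared Fc receptor gamma chain, are also active in macrophages, and Alox5 in neutrophils. The basophil markers Prss34 and Fcer1a had no read at P248L day 5 or wild-type day 2. The 4 defining basophil markers summed to 28.8 to 50.8 CPM at P248L day 5 and 793 to 1107 CPM at wild-type day 2, most of it Cpa3, and the 4 mast cell markers to 0.767 to 1.30 and 1.36 to 2.41 CPM. The part of the number of such cells was not tested.

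Chemokine and inflammatory genes rose in 17 of 20 cases and fell in 1 (median 2.78). Il18, an inflammasome cytokine, read 35.2, 29.1 and 27.2 CPM at P248L day 5, against 0.174, 0.0574 and 0.261 CPM at wild-type day 2 and 91.8, 86.5 and 73.3 CPM at wild-type day 5. Nlrp3, the inflammasome sensor, went above both wild-type groups at 239, 208 and 279 CPM, against 16.3, 13.8 and 17.1 CPM at wild-type day 2 and 87.1, 81.1 and 117 CPM at wild-type day 5. Il6, which mast cells and macrophages secrete, was the gene that fell (1.83 ± 1.05 CPM at P248L day 5 and 15.2 ± 2.5 CPM at wild-type day 2, adjusted p = 3.7e-07). Ccl3, a chemokine for monocytes, had 294, 271 and 455 CPM at P248L day 5 and 295, 362 and 229 CPM at wild-type day 2, which overlapped (adjusted p = 0.46). Fc and lectin receptor genes rose in 23 of 25 cases and Toll-like receptor and inflammasome genes in 16 of 19. Tlr2, a sensor of bacterial lipoproteins, had 264, 227 and 266 CPM at P248L day 5 and 46.2, 46 and 45.6 CPM at wild-type day 2, and Clec12a, an inhibitory lectin, had 329, 335 and 393 CPM, against 257, 258 and 250.3 CPM at wild-type day 2 and 46, 51.9 and 54.6 CPM at wild-type day 5.

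**Figure D4:**
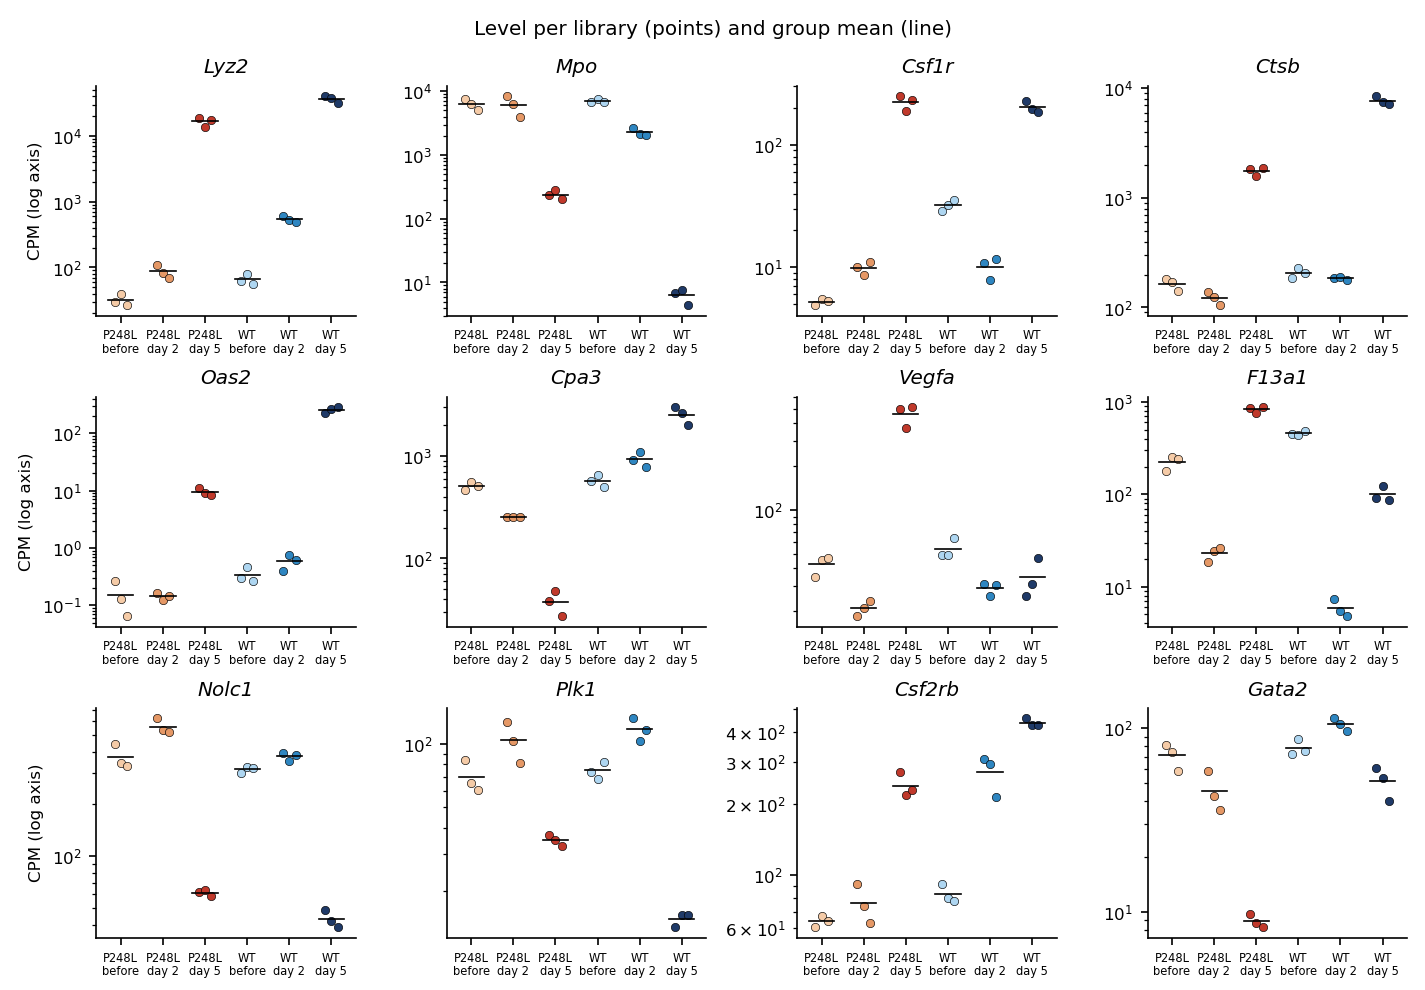
CPM per library (points) and group mean (lines) on log axes for 12 genes, with P248L and wild-type cells each before IL-3, at day 2 and at day 5. Mpo, Lyz2, Ctsb, Oas2 and Plk1 at P248L day 5 lie between wild-type day 2 and day 5, Csf1r beside wild-type day 5 and Csf2rb beside wild-type day 2, while Vegfa and F13a1 lie above and Cpa3 and Gata2 below every wild-type library.

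Genes of growth and division were lower than at wild-type day 2. All 22 ribosome biogenesis genes fell (median -2.12), and 11 of them were higher and 0 lower than at wild-type day 5 (median 0.29). Nolc1, a nucleolar chaperone, read 62, 63.3 and 58.8 CPM at P248L day 5, against 394, 356 and 381 CPM at wild-type day 2 and 48.7, 42 and 38.6 CPM at wild-type day 5 (log2 fold change -2.62 ± 0.13, adjusted p = 3e-11). Rrp12, an export factor of ribosomal subunits, read 13.2, 12.7 and 11.4 CPM, against 78.8, 76.1 and 86.1 CPM at wild-type day 2 and did not differ from wild-type day 5 by the test (adjusted p = 0.25). Of 24 genes of the G1/S transition and DNA replication 23 fell and 0 rose (median -1.47), and of 22 genes of G2 and mitosis 20 fell and 0 rose (median -1.26). In both lists 21 were higher than at wild-type day 5.

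Within the cell cycle, Mcm3, a subunit of the replicative helicase, read 83.8, 99.6 and 83.5 CPM at P248L day 5, against 274, 286 and 295 CPM at wild-type day 2 and 57.4, 52.3 and 50.8 CPM at wild-type day 5. Plk1, a kinase of mitosis, read 36.7, 34.9 and 32.8 CPM, against 133, 104 and 117 CPM at wild-type day 2 and 13.3, 15.2 and 15.4 CPM at wild-type day 5 (log2 fold change -1.76 ± 0.16, adjusted p = 5e-08). Each P248L library lay between the wild-type times. The cyclin-dependent kinase inhibitors did not move as a block: Cdkn1b, which encodes p27, rose to 142, 135 and 130.2 CPM, against 32.3, 32.9 and 39.2 CPM at wild-type day 2 (log2 fold change 1.96 ± 0.14), whereas Cdkn2a, which encodes p16 and p19, fell to 1.76, 1.84 and 0.816 CPM, against 20.6, 22.4 and 21.7 CPM at wild-type day 2 and 60.1, 50.6 and 58.4 CPM at wild-type day 5 (log2 fold change -3.86 ± 0.28, adjusted p = 2.6e-09). Cdkn2a had been lower in the P248L line before IL-3 as well, at 2.11 ± 0.509 CPM, against 10.4 ± 2.56 CPM in the wild-type line. Lmnb1 and Lbr, of the nuclear lamina that is remodelled as neutrophil nuclei lobulate, lay between the wild-type times at 113 ± 11.7 and 295 ± 52.2 CPM, against 269.5 ± 19.7 and 684 ± 87.3 CPM at wild-type day 2.

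The promoter of Ccnb2, the cyclin B2 gene, is shown for the mitotic genes. Its own level was 59, 67.5 and 62.1 CPM at P248L day 5, against 98.8, 94.7 and 110.5 CPM at wild-type day 2 and 22.1, 22.2 and 28 CPM at wild-type day 5. The core of the cell cycle homology region, TTTGAA, was searched on both strands and occurred for 13 of 18 genes of G2 and mitosis with a listed promoter, against 14.5% of all 8580. Capitals mark the match in the 250 bases before the start, on the minus strand of chr9:70421555-70421804. Whether this copy of so short a string is the element itself was not tested.
Ccnb2: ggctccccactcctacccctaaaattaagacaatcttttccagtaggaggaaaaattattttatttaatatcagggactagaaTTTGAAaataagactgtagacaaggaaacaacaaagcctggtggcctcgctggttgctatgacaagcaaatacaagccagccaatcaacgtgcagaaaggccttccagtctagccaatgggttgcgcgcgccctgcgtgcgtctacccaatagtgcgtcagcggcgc

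Genes of survival and cell death changed in both directions, with 11 of 22 higher and 5 lower (72.7% called, near the 66.2% of all genes), or 9 lower with the replicate block in the 6 libraries alone. Mcl1, which protects myeloid cells from apoptosis, rose to 1159, 966 and 1093 CPM at P248L day 5, against 369, 389 and 364 CPM at wild-type day 2 (log2 fold change 1.52 ± 0.12, adjusted p = 8.6e-09). Its antagonist Bcl2l11, which encodes the death protein BIM, also rose, to 110.1, 90.8 and 87 CPM, against 20.6, 17.6 and 15.4 CPM at wild-type day 2 (log2 fold change 2.43 ± 0.16, adjusted p = 6e-10).

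Genes of sugar metabolism stood above the wild-type range in most cases. Of 21 genes of glycolysis and the hypoxia response 14 were higher and 1 lower than at wild-type day 2 (median 0.71), 18 were higher and 0 lower than at wild-type day 5, and 15 lay above all 9 wild-type libraries, against 10.4% of all genes. Against wild-type day 2 the share called, 71.4%, was near the 66.2% of all genes. Vegfa, the angiogenic growth factor (chromosome 17, 46016993 to 46032377), read 498, 369.6 and 509 CPM at P248L day 5, against 30.7, 25.5 and 30.6 CPM at wild-type day 2 and 25.7, 31 and 46.6 CPM at wild-type day 5 (log2 fold change 3.99 ± 0.22 and 3.74 ± 0.22, adjusted p = 9.1e-11 and 3e-10). Slc16a3, the lactate exporter MCT4, read 84.3, 70.7 and 82.1 CPM, against 2.4, 2.35 and 2.51 CPM at wild-type day 2 and 13.5, 19 and 18.3 CPM at wild-type day 5. Bnip3, a mitophagy receptor, read 213, 155 and 228 CPM, against 23.7, 33.2 and 26.9 CPM at wild-type day 2 and 29.9, 39.1 and 69.1 CPM at wild-type day 5. No P248L day 5 library overlapped with a wild-type one for these 3 genes. Egln3, the oxygen-sensing hydroxylase PHD3, rose to 638 ± 107 CPM, against 132 ± 11.2 CPM at wild-type day 2 (adjusted p = 1.9e-05). Pfkfb3, a regulator of glycolytic flux, was the gene that fell (50.5 ± 6.94 CPM at P248L day 5 and 113 ± 5.24 CPM at wild-type day 2), and Hk2, a hexokinase, stood at 259.6 ± 36.4 and 252 ± 5.35 CPM (adjusted p = 0.74).

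The Slc16a3 promoter carries the core of the hypoxia response element, ACGTG, at 2 places. This string occurred on either strand for 15 of 20 glycolysis and hypoxia genes with a listed promoter, against 29.7% of all 8580, and it is also contained in the E-box CACGTG, which 12.1% of them held. Capitals mark the matches in the 250 bases before the start, on the plus strand of chr11:120948817-120949066.
Slc16a3: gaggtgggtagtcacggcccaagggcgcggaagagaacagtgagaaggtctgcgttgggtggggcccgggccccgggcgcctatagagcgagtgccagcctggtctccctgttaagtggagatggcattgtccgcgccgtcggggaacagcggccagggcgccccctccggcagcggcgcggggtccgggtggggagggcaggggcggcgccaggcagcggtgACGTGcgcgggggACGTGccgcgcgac

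Of 21 tested cholesterol synthesis genes, 8 were higher and 1 lower than at wild-type day 2 (median 0.21), or 5 higher and 4 lower without a scaling factor and 4 lower with the replicate block in the 6 libraries alone, and 17 had intervals inside 2-fold. The share called was 42.9%, below the 66.2% of all genes. Against wild-type day 5, 19 were higher and 0 lower (median 0.88), and 11 lay above all 9 wild-type libraries, against 10.4% of all genes. Hmgcs1, an early enzyme of the pathway, read 479, 482 and 406 CPM at P248L day 5, against 265, 309 and 218 CPM at wild-type day 2 and 219, 222 and 185 CPM at wild-type day 5 (log2 fold change 0.79 ± 0.15, adjusted p = 0.0002). Sqle, squalene epoxidase, read 215, 214 and 219 CPM, against 182, 209 and 169 CPM at wild-type day 2 and 91.2, 87.8 and 88.9 CPM at wild-type day 5 (adjusted p = 0.099 against wild-type day 2, or 0.0038 with the block in the 6 libraries alone).

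Amino acid and mitochondrial genes were lower in the main. Of 20 genes of the ATF4 and amino acid response 11 fell and 7 rose against wild-type day 2, while 15 were higher and 1 lower than at wild-type day 5. Slc7a11, the cystine transporter, read 143, 232 and 162 CPM at P248L day 5, against 1159.7, 1263 and 805 CPM at wild-type day 2 (log2 fold change -2.59 ± 0.28, adjusted p = 3.1e-07). Asns, asparagine synthetase, read 186, 195 and 215 CPM, against 163, 148 and 171 CPM at wild-type day 2 and 32.2, 32.5 and 32.9 CPM at wild-type day 5. It lay above all 9 wild-type libraries (log2 fold change 0.30 ± 0.11 over wild-type day 2, adjusted p = 0.02), but the call over wild-type day 2 was lost without a scaling factor (adjusted p = 0.23) and without P248L day 5 library 3 or wild-type day 2 library 1 or 2 (0.097, 0.081 and 0.17). Of 20 genes of oxidative phosphorylation 13 fell and 0 rose against wild-type day 2 (65% called, near the 66.2% of all genes). Atp5a1, a subunit of ATP synthase, stood at 600.02 ± 31.2 CPM at P248L day 5 and 1251 ± 50.3 CPM at wild-type day 2.

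The genes with the largest single rises were of several kinds. Tgm2, transglutaminase 2 (chromosome 2, 158116405 to 158146392), read 436, 417 and 384 CPM at P248L day 5, against 0.784, 0.459 and 0.313 CPM at wild-type day 2 and 108, 103 and 100.01 CPM at wild-type day 5 (log2 fold change 9.58 ± 0.26, adjusted p = 6e-14). Serpinb9f, Serpinb9e and Serpinb9g, protease inhibitors of a multigene family on chromosome 13, were among these rises. Serpinb9g had 446, 414 and 638 CPM, against 0.654, 0.918 and 2.87 CPM at wild-type day 2 and 0.914, 1.54 and 1.22 CPM at wild-type day 5, and Serpinb9f had 63.3, 58.3 and 72.1 CPM with no read at wild-type day 2, at least 1281-fold higher from a floor of 3 reads over the group. The copies are alike, so the split between them is uncertain. Slc16a7, a pyruvate transporter, had 24.8, 22.3 and 27.3 CPM at P248L day 5, against 0, 0.172 and 0.0522 CPM at wild-type day 2, and had been present before IL-3 at 11.4 ± 2.4 CPM in P248L cells and 0.153 ± 0.0874 CPM in wild-type cells. Cyp4a12a, a fatty acid hydroxylase, Klk1b11, a kallikrein of a multigene family, Dpep2, a leukotriene-cleaving dipeptidase, and Vwf, von Willebrand factor, completed the 10 largest rises, with log2 fold changes from 7.46 ± 0.40 to 9.23 ± 0.44. Vwf and Klk1b11 were higher still at wild-type day 5, at 413 ± 51.4 and 418 ± 96.2 CPM.

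The largest falls belonged to 10 genes that the P248L line hardly expressed, with group means of at most 0.0796 CPM before IL-3 and at days 2 and 5. Svil, which encodes supervillin, read 0.0463, 0 and 0 CPM at P248L day 5, against 90.8, 92.9 and 72.6 CPM at wild-type day 2, and 0.0109 ± 0.0189 CPM in P248L cells before IL-3 against 64.2 ± 6.08 CPM in wild-type cells before IL-3. Lonrf3, a ubiquitin ligase, had no read in the P248L day 5 libraries, against 53.3, 64.6 and 53.3 CPM at wild-type day 2, at least 962-fold lower from the same floor. Gphn (gephyrin), Chchd10, Rnf217, Mtus2, Zc3h12c, Cpped1, Maoa (monoamine oxidase A) and Fpgt made up the rest of the 10. They stood at 0 to 0.0256 CPM at P248L day 5, 11.3 to 54.9 CPM at wild-type day 2, 0 to 0.0125 CPM in P248L cells before IL-3, and 8.07 to 45.4 CPM in wild-type cells before IL-3. All 8 passed the test between the lines before IL-3 was given. In all, 2571 genes (21.5%) differed between the lines before IL-3, 1225 higher (10.3%) and 1346 lower (11.3%) in P248L cells.

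To take this starting difference out, the change of P248L cells by day 5 was tested against the change of wild-type cells by day 2. It differed for 6604 genes (55.3%), 3332 with a more positive (27.9%) and 3272 with a more negative (27.4%) change in P248L cells, and for 7444 when P248L before IL-3 library 1 and P248L day 2 library 3 were left out. Members with a more positive change numbered 25 of 33 for monocyte and macrophage genes (median difference 3.75 on the log2 scale against 0.035 over all genes), 19 of 28 for secondary and tertiary granule genes, 20 of 29 for late neutrophil genes, 22 of 26 for lysosomal genes and 22 of 32 for interferon genes. Members with a more negative change numbered 22 of 22 for ribosome biogenesis, 22 of 24 for G1/S, 17 of 20 for oxidative phosphorylation, 8 of 12 for primary granules and 8 of 19 for basophil and mast cell genes. Cholesterol synthesis genes gave 2 and 3 of 21.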

How the data were processed

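Total RNA of 18 samples, 3 in each of 6 groups, was sequenced; the labels' protocols do not say how messenger RNA was selected. Reads were aligned to mm10 with STAR, per the submitters' processing notes, with no version or annotation given in the sources used here. The files, as deposited by the authors, hold whole-number read counts per gene for both strands and for each strand, and the second-strand column, which held nearly all reads in genes (1.17 to 2.54% lay on the other strand), was used. The 4 summary lines of each file (reads in no single gene were 27.9 to 38.1%) were left out of library sizes and tests. Gene positions and promoters are from RefSeq (GRCm38.p6).

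Counts were filtered (edgeR filterByExpr, minimum count 10), scaled by TMM and tested with edgeR 4.0.16 in R 4.3.3 by the quasi-likelihood test over all 18 libraries with 1 mean per group, with Benjamini-Hochberg adjustment over 11942 genes and a threshold of 0.05. Intervals are 95%. The code was tested on simulated data. Log2 CPM used a prior count of 2. A group without reads was set to a floor of 3 reads. Such bounds cover counting error only. Alternatives used DESeq2 1.42.0, other scaling and filters, a replicate block and fewer libraries. Figures used Python 3.11.15 and matplotlib 3.10.9.

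Members and gene lists were chosen with earlier results of these data known. Named genes were the 10 largest rises and falls (adjusted p under 0.05, 10 CPM or more in the higher group, no overlap, a common name), the 5 largest response differences (10 CPM or more in 1 of the 4 groups) and the 5 largest gaps outside the wild-type range in each direction, and per list up to 4 members of smallest adjusted p with up to 2 whose interval lay within 2-fold, besides a fixed set of receptor, granule and lineage genes. Maf, Ccr2, Lpl, Cd63, H2-Aa, Hdc, Il1rl1, Il6, Egln3, Hpgds, Ltc4s, Fcer1g, Alox5, Trem3 and Ptgs2 were named after their values were seen. Same-numbered libraries of P248L day 5 and wild-type day 2 deviated together (r = 0.290, 0.111 and 0.213 for numbers 1, 2 and 3), which meets the rule for pairing; the 5 other pairs of groups checked did not meet it. What a number stands for is not in the labels.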

Additional observations from a re-analysis of the deposited data

Results flagged for a closer look

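The change of P248L cells by day 5 differed from the change of wild-type cells by day 2 in 6604 genes by a test of the difference itself (edgeR's quasi-likelihood test), and the 5 largest differences in each direction among genes with a common name and a mean of 10 CPM or more in at least 1 of the 4 groups are given here. Klk1b11, a kallikrein of a multigene family, averaged 130.9 CPM at P248L day 5 with no read in P248L cells before IL-3, against 0.215 CPM at wild-type day 2 and 0.216 CPM in wild-type cells before IL-3 (edgeR adjusted p = 8.7e-07). Serpinb9e, of a family of near-identical copies, averaged 89.3 CPM at P248L day 5 and 0.144 CPM at wild-type day 2 (edgeR adjusted p = 0.0017). March1, a ubiquitin ligase that removes MHC class II from the surface, averaged 82.7 CPM at P248L day 5 and 5.71 CPM at wild-type day 2 (edgeR adjusted p = 4.9e-11). Fpr1 had an edgeR adjusted p of 6.4e-05. None of these 4 genes had a read in P248L cells before IL-3, so no fold is given.

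Hpgd, which degrades prostaglandins, averaged 0.0309 CPM at P248L day 5 and 0.0482 CPM at wild-type day 2, with no read in P248L cells before IL-3 and 44.2 CPM in wild-type cells before IL-3 (edgeR adjusted p = 0.00054). Of these 4 means the one of wild-type cells before IL-3 stood apart. Without P248L day 5 library 1 the adjusted p of Hpgd was 1, and without the first wild-type library before IL-3 Serpinb9e lost its call.

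Among the 5 more negative changes, the log2 difference of responses was -5.88 for Rbpms2, an RNA-binding protein, -5.73 for Lama5, a laminin chain, -4.85 for Ccnb1ip1, a ubiquitin ligase, -4.85 for Amot, angiomotin, and -4.84 for Angpt1, angiopoietin 1. Angpt1 averaged 1.66 CPM at P248L day 5 and 142.5 CPM in P248L cells before IL-3, against 65.4 CPM at wild-type day 2 and 202.6 CPM in wild-type cells before IL-3. Lama5 averaged 15.1 CPM at wild-type day 2 and stayed under 1 CPM in the other 3 groups.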

How the results depend on the processing

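For the 240 named genes, 4379 of 4532 values under an alternative kept their direction and their side of the threshold, 93 (in 22 genes) lost the call, 60 gained one and 0 reversed. Asking for 2-fold or more left 4517 genes against wild-type day 2 (2400 higher, 2117 lower), 2558 against wild-type day 5 (1080 higher, 1478 lower) and 2174 with a more negative response, by construction. Leaving out 1 library at a time gave 7279 to 7464 genes against wild-type day 2 (3536 to 3745 higher, 3627 to 3897 lower), 4574 to 4915 against wild-type day 5 (2196 to 2407 higher, 2373 to 2533 lower), and 6053 to 6958 for the difference of responses (2908 to 3398 more positive, 2991 to 3598 more negative). It gave 4137 to 4245 genes with an interval inside 2-fold, 1180 to 1446 above and 1051 to 1259 below all wild-type libraries, and distances of 1.474 to 1.509 to wild-type day 2 and 1.369 to 1.392 to wild-type day 5. With a mean of 100 reads or more the distances were 1.326 and 1.072, and with a prior count of 0.5 they were 1.692 and 1.594, so wild-type day 5 stayed nearer. Genes that fell in both the wild-type day 2 and the P248L day 5 response numbered 2010 without a scaling factor, and opposite changes 1462 without P248L before IL-3 library 1 and P248L day 2 library 3; the cause was not tested. With the replicate block 7995 genes were called against wild-type day 2, and 9451 in the 6 libraries alone, a fit added after seeing the data; the block took the call from Cdkn2d (adjusted p = 0.058), Sdha (0.054) and Trem3. Depth and 3 libraries a group limit what can be said of genes under about 1 CPM.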
